A study of Mus musculus with 4 samples.

Results

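The 10 genes described here encode the LIN28 proteins (Lin28a, Lin28b), TRIM71 (Trim71), N-MYC (Mycn), the HMGA chromatin proteins (Hmga1, Hmga2), ARID3B (Arid3b) and the IGF2BP RNA-binding proteins (Igf2bp1, Igf2bp2, Igf2bp3). They were chosen by name, as genes of the LIN28 and let-7 circuit and its oncofetal targets, with earlier results of these data known. They are 10 of the 55421 gene identifiers in the deposited count table. All 10 were among the 14427 genes that passed the filter on low counts. Coordinates are those of GRCm38. Transcripts were measured in E14 mouse embryonic stem cells of the 129/Ola strain, a line of blastocyst origin, cultured on gelatin-coated plates in medium with serum and LIF, a cytokine that sustains self-renewal. One group lacks the microRNA cluster miR-290-295 (KO, 2 libraries), and the other is wild type (WT, 2 libraries). The libraries are biological duplicates by the design text. Whether each KO library is a clone of its own is not in the labels, so the p-values rest on the spread between libraries, which may be technical.

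LIN28 proteins bind the precursors of the let-7 microRNAs and block their processing, and let-7 in turn represses the Lin28 mRNAs through sites in their 3' UTRs. Pluripotent cells sit at the LIN28 end of this double-negative loop, with abundant LIN28A and little mature let-7. Other let-7 targets, such as Hmga2 and the Igf2bp genes, are called oncofetal because they are active in the embryo, mostly silent in adult tissue, and often active again in tumours. In mouse embryonic stem cells that lack microRNA processing, microRNAs of the miR-290 cluster and let-7 were reported to act in opposite directions on self-renewal, and Lin28a was among the genes affected.

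The sequences of both microRNA families are shown because their seeds set the target words. The sequences are those of RefSeq (GRCm38.p6), and capitals mark the seed, bases 2 to 8, which pairs with the target.
mmu-let-7a-5p: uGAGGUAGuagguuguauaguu
mmu-let-7g-5p: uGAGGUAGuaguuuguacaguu
mmu-miR-98-5p: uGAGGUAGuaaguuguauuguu
mmu-miR-291a-3p: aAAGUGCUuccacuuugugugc
mmu-miR-294-3p: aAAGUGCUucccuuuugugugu
mmu-miR-295-3p: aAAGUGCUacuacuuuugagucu
All 9 mature let-7 family sequences examined, miR-98 included, had the seed GAGGUAG, and the 8-base target word searched for it was CTACCTCA. The last 3 microRNAs, from the deleted cluster, share the seed AAGUGCU, for which the 8-base target word was AGCACTTA. Words of the miR-290 family are here those of this seed only. In the same cluster miR-290a-3p (AAGUGCC), miR-291b-3p (AAGUGCA) and miR-293-3p (GUGCCGC) have other seeds, and the words of their full seeds were not searched. A word of 7 bases lacks either the first or the last base of the 8-base form. Words were searched on the transcript strand of the longest annotated 3' UTR of each gene.

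The QuantSeq 3' method gives reads near the poly(A) tail, and a count is 1 such read. Levels are given in CPM, counts scaled by the library total. They were not divided by transcript length, and levels were not compared between genes. Total counts were 12726123 and 11764868 in KO libraries 1 and 2, and 12163759 and 9925557 in WT libraries 1 and 2. The 7 plus-strand microRNA genes of the cluster held 0 counts in both KO libraries, against 88 and 39 in WT libraries 1 and 2, as the labels state.

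Of the 10 genes, 1 was higher in KO (Mycn) and 2 were lower (Lin28a and Trim71) by edgeR's quasi-likelihood test (Benjamini-Hochberg adjusted p below 0.05 over all 14427 genes). In the same test 7.42% of all genes were higher and 4.96% were lower, 12.4% in either direction, and 3 of 10 genes is too small a count to set apart from these shares. The other 7 genes did not pass. The KO libraries lay wholly above or below the WT libraries for 8 of the 10 genes, where 58% of all tested genes did so. The median log2 fold change (KO over WT) of the 10 was 0.17, against -0.01 over all tested genes.

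**Figure D1:**
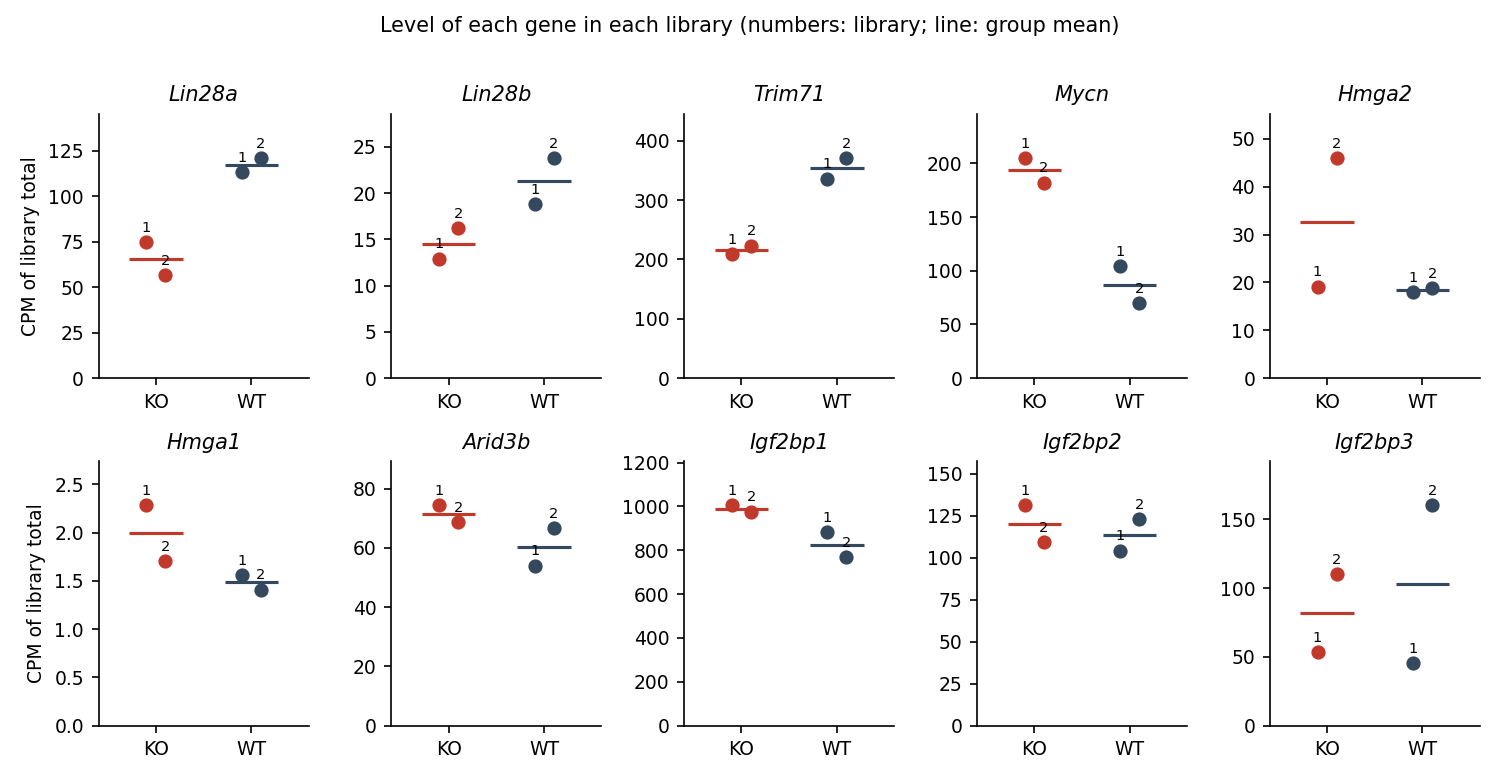
Level of each of the 10 genes in every library, in CPM of the library total, with KO on the left of each panel, WT on the right, points numbered by library and a line at the group mean. Lin28a and Trim71 lie lower in both KO libraries (74.7 and 56.4 CPM, and 209 and 223 CPM), Mycn lies higher (205 and 182 CPM), and Igf2bp3 differs more between libraries 1 and 2 than between the groups.

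Lin28a fell in KO cells. LIN28A is the cytoplasmic LIN28 protein of pluripotent cells, which recruits uridylyltransferases to let-7 precursors. Lin28a (ENSMUSG00000050966, chr4:134003330-134018841) held 74.7 and 56.4 CPM in KO libraries 1 and 2, against 113 and 121 CPM in WT libraries 1 and 2. Both KO libraries were lower than both WT libraries, and the KO pair differed more than the WT pair. The means were 65.5 ± 13 CPM in KO and 117 ± 5.68 CPM in WT (SD, n = 2 each), and the log2 fold change was -0.84 (SE 0.18, edgeR adjusted p = 0.0185), so the KO level was 0.56 of that in WT. Without KO library 2 the log2 fold change was -0.64 and the call was lost (edgeR adjusted p = 0.199). The longest 3' UTR of Lin28a held 2 let-7 words, both of the 8-base form, and 0 words of the miR-290 family. They are shown because the let-7 arm of the loop acts through such sites. Both lie on the minus strand of GRCm38, and capitals mark the match.
Lin28a (chr4:134005189-134005218): ttggagtgcacagcctgttgaaCTACCTCA
Lin28a (chr4:134004551-134004580): atgctttgagatcgccacaaacCTACCTCA

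Lin28b, the paralog that also blocks let-7 processing (ENSMUSG00000063804, chr10:45376620-45486395), did not pass the test. It held 12.9 and 16.2 CPM in KO libraries 1 and 2, against 18.8 and 23.8 CPM in WT libraries 1 and 2. The groups did not overlap, but the highest KO library and the lowest WT library lay close together. The log2 fold change was -0.54 (SE 0.25, edgeR adjusted p = 0.187), and with 1 library left out it lay between -0.72 and -0.38. Whether the changes of the LIN28 paralogs differ was not tested. Its 3' UTR held 5 let-7 words, 1 of them of 8 bases and starting at base 36 of the 3' UTR, and 2 words of the miR-290 family, both of 7 bases.
Lin28b, let-7 word (chr10:45381022-45381051): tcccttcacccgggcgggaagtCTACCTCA
Lin28b, miR-290 family word (chr10:45378523-45378552): cagatgtgaactcactgatatgAGCACTTg

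Trim71 also fell. TRIM71, the vertebrate counterpart of LIN-41 of Caenorhabditis elegans, is an RNA-binding protein with a RING domain that represses target mRNAs, and its gene is a classical let-7 target. Trim71 (ENSMUSG00000079259, chr9:114507133-114564369) held 209 and 223 CPM in KO libraries 1 and 2, against 336 and 371 CPM in WT libraries 1 and 2. The libraries of each group lay close together and far from those of the other group. The log2 fold change was -0.71 (SE 0.14, edgeR adjusted p = 0.0132), with means of 216 ± 9.89 CPM in KO and 354 ± 24.7 CPM in WT (SD, n = 2 each). The size of the change held with any 1 library left out (-0.77 to -0.66), but the call was lost without KO library 1 (edgeR adjusted p = 0.136) and without KO library 2 (edgeR adjusted p = 0.0762). It held without WT library 1 (edgeR adjusted p = 0.0029) and without WT library 2 (edgeR adjusted p = 0.00613). Trim71 had the most 8-base let-7 words of the 10 genes, 4 of its 6, and 1 word of the miR-290 family.
Trim71 (chr9:114512472-114512501): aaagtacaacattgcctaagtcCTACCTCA
Trim71 (chr9:114512376-114512405): cctgtgaagtgataatttctatCTACCTCA
Trim71 (chr9:114509047-114509076): gattttgtttagtatggattttCTACCTCA
Trim71 (chr9:114509021-114509050): ctcaattttggcaaaaagttgtCTACCTCA
The first pair lies near the stop codon and the second pair lies together further along the 3' UTR, on the minus strand of GRCm38.

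Mycn was the only one of the 10 genes that rose at this threshold. N-MYC is a basic helix-loop-helix transcription factor of the MYC family that drives growth and is abundant in embryonic stem cells. Mycn (ENSMUSG00000037169, chr12:12936093-12941914) held 205 and 182 CPM in KO libraries 1 and 2, against 104 and 70 CPM in WT libraries 1 and 2. Both KO libraries were far above both WT libraries, and the WT pair differed more in proportion than the KO pair. The means were 194 ± 16.7 CPM in KO and 87.1 ± 24.2 CPM in WT (SD, n = 2 each), a 2.22-fold difference (log2 fold change 1.15, SE 0.21, edgeR adjusted p = 0.00931). With 1 library left out the log2 fold change lay between 0.88 and 1.49, and the call held in each of these 4 fits. The family member Myc, which is not one of the 10, did not pass: it held 10.4 and 16.8 CPM in KO libraries 1 and 2, against 43.1 and 15.4 CPM in WT libraries 1 and 2, and the groups overlapped (log2 fold change -1.12, SE 0.44, edgeR adjusted p = 0.13). The difference rested on WT library 1: without it Myc gave -0.17 (edgeR adjusted p = 0.776), and without WT library 2 it gave -1.68 (edgeR adjusted p = 0.000361).

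The 3' UTR of Mycn held a word of each microRNA family side by side near its end, the only such pair among the 10 genes that falls within a single stretch of 30 bases. In the stretch below, on the minus strand of GRCm38, the first capitals mark AGCACTT, the word of the miR-290 family, and the second mark TACCTCA, a let-7 word, with 5 bases between them.
Mycn (chr12:12936128-12936157): ctgcaccttagAGCACTTtgaaaTACCTCA
A second let-7 word of 7 bases lay nearer the stop codon. A match is a word in the annotated 3' UTR, and its use by a microRNA was not measured.

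The genes whose levels over the 4 libraries were most like that of Mycn, by Euclidean distance of centred log2 CPM, were Mir142hg (distance 0.02), Mfsd12 (0.0652) and C920009B18Rik (0.0749). They held far fewer counts, and none of these 3 passed the test, with edgeR adjusted p-values of 0.145 (log2 fold change 1.25), 0.0547 (1.16) and 0.187 (1.25).

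The HMGA proteins bind AT-rich DNA and shape chromatin, and Hmga2 is a well-known let-7 target. Hmga2 (ENSMUSG00000056758, chr10:120361275-120476469) held 19.1 and 46 CPM in KO libraries 1 and 2, against 18 and 18.8 CPM in WT libraries 1 and 2. KO library 2 stood alone, 2.41-fold above KO library 1, which was level with the WT pair. The log2 fold change of 0.82 (SE 0.36, edgeR adjusted p = 0.167) therefore rested on 1 library: it was 0.06 without KO library 2 (edgeR adjusted p = 0.961) and 1.33 without KO library 1 (edgeR adjusted p = 0.0119). Without a filter on low counts Hmga2 passed (0.83, edgeR adjusted p = 0.0139). The antisense gene 9230105E05Rik, which overlaps Hmga2, held 4 and 13 counts in KO and 1 and 7 in WT. Another overlapping antisense gene, 1700006J14Rik, held 12 and 25 counts in KO and 15 and 26 in WT. Hmga2 had the most let-7 words of the 10 genes, 7, of which 1 has 8 bases and lies near the stop codon, and 0 of the miR-290 family.
Hmga2 (chr10:120364224-120364253): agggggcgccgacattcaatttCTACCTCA

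Hmga1 (ENSMUSG00000046711, chr17:27556497-27563674) held few counts. It held 29 and 20 counts in KO libraries 1 and 2 (95% Poisson intervals 19.4 to 41.6 and 12.2 to 30.9), against 19 and 14 in WT libraries 1 and 2 (11.4 to 29.7 and 7.65 to 23.5), or 2.28 and 1.7 CPM in KO and 1.56 and 1.41 CPM in WT. These intervals overlap, and the log2 fold change of 0.42 (SE 0.51, edgeR adjusted p = 0.65) shows no difference detectable at this depth. The count is uncertain. The ends of its transcripts share 50-base words with Hmga1b, an annotated copy on chromosome 11, which held 15 and 8 counts in KO and 19 and 9 in WT, and reads that fit both genes may have been split or left out by the authors' counting. None of the other 9 genes shared such a word with another annotated gene. On the opposite strand AI413582 overlaps Hmga1 and held 169 and 135 counts in KO and 81 and 143 in WT. The antisense gene Gm49774 also overlaps it and held 12 and 16 counts in KO and 21 and 19 in WT. The strand setting of the counting is not known, so reads of these genes cannot be told apart for certain. Hmga1 had 1 let-7 word, of 7 bases, and no word of the miR-290 family.

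Arid3b (ENSMUSG00000004661, chr9:57790353-57836793), which encodes a DNA-binding protein with an AT-rich interaction domain, did not pass the test. It held 74.3 and 68.7 CPM in KO libraries 1 and 2, against 54 and 66.7 CPM in WT libraries 1 and 2, so that KO library 2 and WT library 2 were almost level. The log2 fold change was 0.25 (SE 0.17, edgeR adjusted p = 0.396). Its 3' UTR held 5 let-7 words, all of 7 bases.

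None of the 3 Igf2bp genes passed the test. The IGF2BP proteins bind mRNAs, IGF2 mRNA among them, and affect their stability, location and translation. Igf2bp1 (ENSMUSG00000013415, chr11:95957163-96005940) held 1004 and 975 CPM in KO libraries 1 and 2, against 881 and 767 CPM in WT libraries 1 and 2. Both KO libraries were above both WT libraries by a small margin, with a log2 fold change of 0.26 (SE 0.14, edgeR adjusted p = 0.246). Igf2bp2 (ENSMUSG00000033581, chr16:22059009-22163299) held 131 and 109 CPM in KO libraries 1 and 2, against 104 and 123 CPM in WT libraries 1 and 2, and the groups overlapped (log2 fold change 0.09, SE 0.17, edgeR adjusted p = 0.787). Its sign turned without KO library 1 (-0.05) and without WT library 1 (-0.02).

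Igf2bp3 differed between libraries of the same group more than between the groups. Igf2bp3 (ENSMUSG00000029814, chr6:49085223-49214957) held 53.3 and 110 CPM in KO libraries 1 and 2, against 45.4 and 160 CPM in WT libraries 1 and 2. Library 2 was higher in both groups, 2.06-fold in KO and 3.53-fold in WT. The log2 fold change of -0.32 (SE 0.49, edgeR adjusted p = 0.722) depended on the library left out: it was -0.93 without KO library 2, 0.12 without KO library 1, -0.96 without WT library 1 (edgeR adjusted p = 0.0322) and 0.82 without WT library 2 (edgeR adjusted p = 0.0714). Malsu1 overlaps Igf2bp3 on the opposite strand and held 686 and 592 counts in KO and 844 and 612 in WT. The strand setting of the counting is not given in the sources used here, so reads of overlapping genes cannot be told apart for certain.

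Each Igf2bp gene held an 8-base let-7 word. Igf2bp1 held 3 and the others 1 each. The first word of Igf2bp1 and the word of Igf2bp2 each have a second let-7 word, of 7 bases, starting within 20 bases of them. The first word of each gene is shown, and all lie on the minus strand of GRCm38.
Igf2bp1 (chr11:95961778-95961807): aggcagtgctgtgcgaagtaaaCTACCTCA
Igf2bp2 (chr16:22059473-22059502): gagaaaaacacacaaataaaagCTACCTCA
Igf2bp3 (chr6:49086787-49086816): ttaaacgtgcatttttactcaaCTACCTCA

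**Figure D2:**
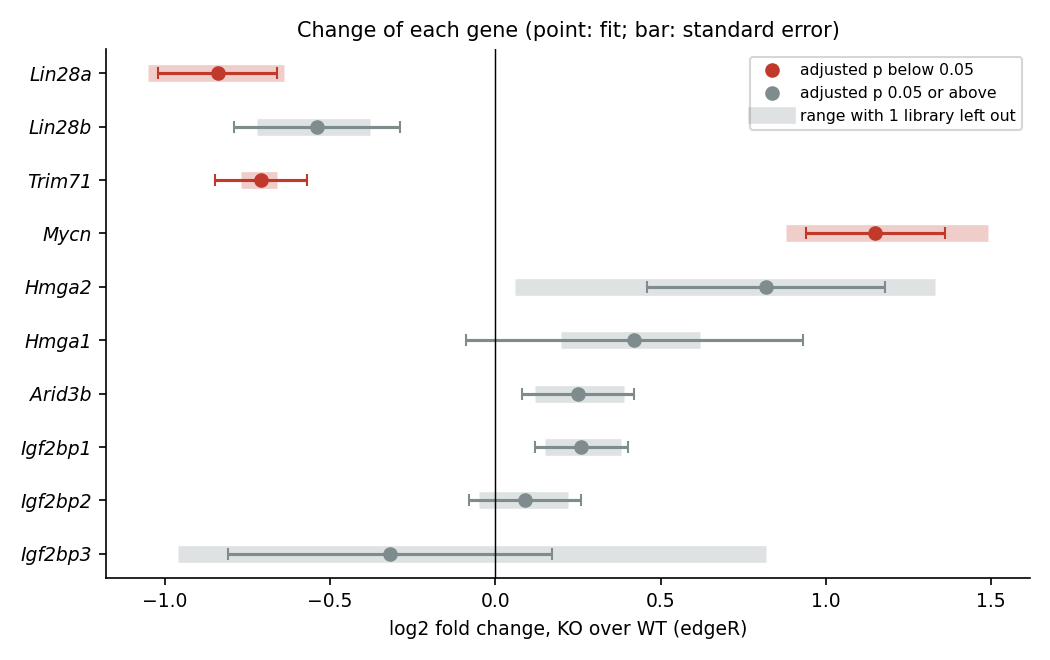
Log2 fold change of KO over WT for each of the 10 genes, from edgeR, with the standard error as a bar and the range over 4 fits that each leave out 1 library as a shaded band. Lin28a (-0.84), Trim71 (-0.71) and Mycn (1.15) passed the test, and the bands of Hmga2 (0.06 to 1.33) and Igf2bp3 (-0.96 to 0.82) are the widest of the 10.

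All 10 genes held at least 1 let-7 word in the longest 3' UTR, against 14.9% of 21022 genes with an annotated 3' UTR, and 7 held the 8-base form, against 3.06%. This is a property of the choice of genes, several of which are known let-7 targets, and their 3' UTRs were also longer (median 2467 bases, against 960 over all genes). A word of the miR-290 family was present in 4 of the 10 (Lin28b, Trim71, Mycn and Igf2bp1), against 17.7% of all genes, and the 8-base form in 0 of the 10, against 2.96%. The genes with a word of the miR-290 family gave log2 fold changes of -0.54 (Lin28b), -0.71 (Trim71), 1.15 (Mycn) and 0.26 (Igf2bp1). Of these, Lin28b and Igf2bp1 did not pass the test. Lin28a, which fell, has no such word. Whether these words had a part in any change was not tested.

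**Figure D3:**
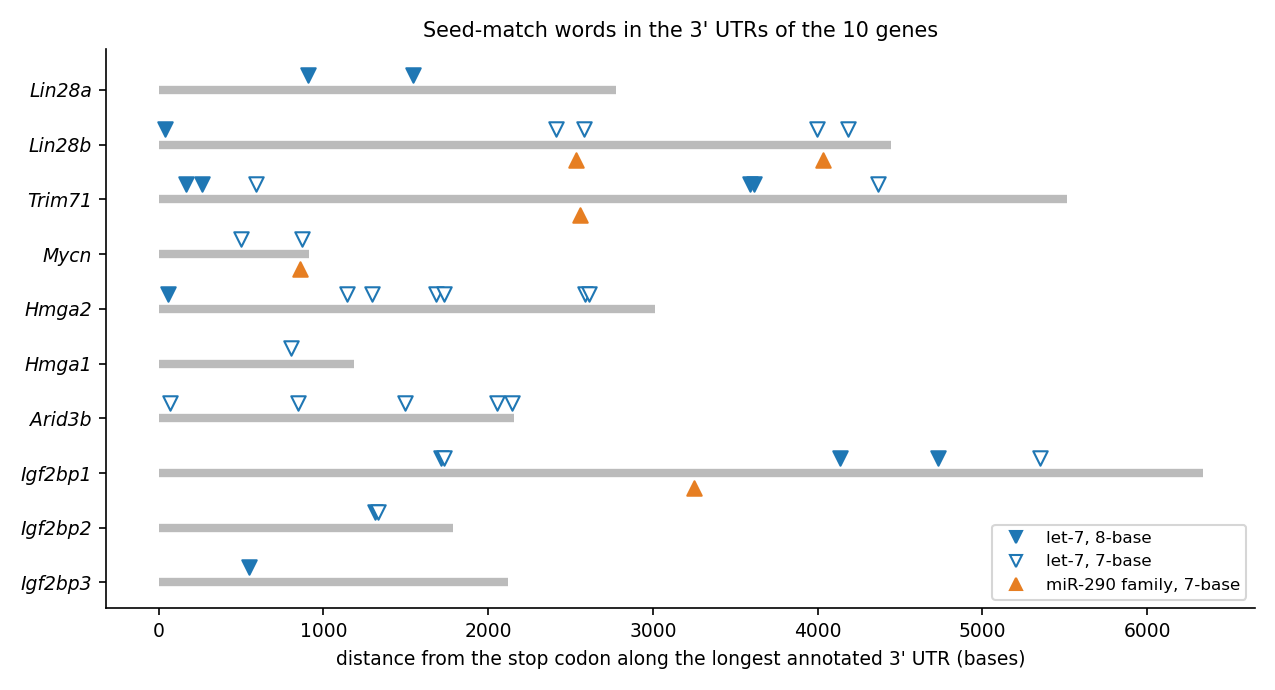
Position of let-7 words (blue, filled for 8 bases and open for 7) and of miR-290 family words (orange) along the longest annotated 3' UTR of each of the 10 genes, as distance from the stop codon in bases. Trim71 holds 4 words of the 8-base let-7 form, Hmga2 holds 7 let-7 words, and in Mycn a word of each family lies near the end of the 3' UTR.

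Over all tested genes, those with let-7 words lay close to those without. The 2109 genes with at least 1 let-7 word had a median log2 fold change of 0.02, 7.59% were higher in KO and 5.03% were lower. The 465 genes with the 8-base form had a median of -0.01, with 7.74% higher and 5.59% lower. The 10374 genes without a let-7 word had a median of 0, with 8.09% higher and 5.14% lower. For the miR-290 family the 2602 genes with at least 1 word had a median of 0.11, with 10.6% higher and 3.31% lower. The 431 genes with its 8-base form, which none of the 10 genes holds, had a median of 0.2, with 16% higher and 1.62% lower. The 9881 genes without a word of that family had a median of -0.02, with 7.32% higher and 5.6% lower. No test was made of these values.

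The factors that make or block let-7 were next described as a list. Of 16 genes of let-7 biogenesis and the LIN28 machinery, 1 was higher and 0 were lower. Over all tested genes 7.42% were higher and 4.96% were lower, and 16 genes are too few to set apart from these shares. The median log2 fold change of the 16 was -0.04, against -0.01 over all tested genes. The one that rose was Ago1, an Argonaute protein that carries microRNAs, with 47.9 and 59 CPM in KO libraries 1 and 2, against 28.2 and 25.2 CPM in WT libraries 1 and 2 (log2 fold change 1, SE 0.2, edgeR adjusted p = 0.0143). When KO library 2 was left out it did not pass (0.85, edgeR adjusted p = 0.121). Its paralog Ago2 gave -0.43 (edgeR adjusted p = 0.0731), and Trim25, a ubiquitin ligase reported to act with LIN28A and TUT4, gave -0.57 (edgeR adjusted p = 0.0538). Trim25 passed without WT library 2 (-0.65, edgeR adjusted p = 0.0148) and with the DESeq2 test (DESeq2 adjusted p = 0.0407). Msi1, an RNA-binding protein reported to cooperate with LIN28, gave 0.41 (edgeR adjusted p = 0.284), with 0.14 without WT library 1 (edgeR adjusted p = 0.698) and 0.73 without WT library 2 (edgeR adjusted p = 0.0317). The uridylyltransferase genes Tut4 and Tut7 and the nuclease gene Dis3l2, which act on let-7 precursors bound by LIN28A, did not pass, with -0.11, -0.06 and 0.34.

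The let-7 microRNAs themselves were not measured, because a library of poly(A) tags does not detect mature microRNAs. Of 13 identifiers of let-7 family genes and a host transcript, 12 held 0 counts in every library. Mir98 held 14 and 12 counts in KO libraries 1 and 2, against 30 and 22 in WT libraries 1 and 2 (log2 fold change -1.14, SE 0.52, edgeR adjusted p = 0.187).

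Most other published let-7 targets did not pass the test. Of 29 that were tested, 2 were higher, 2 were lower and 25 did not pass, a share of calls near the 12.4% over all genes, and the median log2 fold change was 0.18, against -0.01 over all tested genes. Ccnd2, which encodes cyclin D2, held 411 and 492 CPM in KO libraries 1 and 2, against 17.6 and 16.3 CPM in WT libraries 1 and 2 (4.73, SE 0.18, edgeR adjusted p = 6.2e-06). Its 3' UTR held 3 let-7 words and 1 word of the miR-290 family. Of the targets named below, Plagl2 held 2 words of that family, Igf1r 1 and Cdk6 3, and Cdc34 and Irs2 held 0. The part of these words in the changes was not tested. The zinc finger gene Plagl2 gave 1.04 (SE 0.28, edgeR adjusted p = 0.0424) and lost its call in 3 of the 4 fits with a library left out, all except that without WT library 1 (edgeR adjusted p up to 0.144). Igf1r, the receptor of insulin-like growth factors, fell to 33.9 and 47.9 CPM in KO libraries 1 and 2, against 74.2 and 103 CPM in WT libraries 1 and 2 (-1.11, SE 0.23, edgeR adjusted p = 0.0151), and its call was lost without KO library 1 (-0.88, edgeR adjusted p = 0.094). Cdc34, a ubiquitin-conjugating enzyme of the cell cycle, gave -0.68 (edgeR adjusted p = 0.0353) and kept its call in 1 of the 4 fits with a library left out, that without WT library 2, with -0.72 when KO library 1 was left out, -0.62 for KO library 2 and -0.45 for WT library 1. Irs2 and Cdk6 did not pass with all 4 libraries (1.01 and 0.68), and both did without KO library 1 (1.4, edgeR adjusted p = 0.0203, and 1.08, edgeR adjusted p = 0.0136). Without KO library 2 Irs2 gave 0.49 and Cdk6 gave 0.16, so the Cdk6 value rested on that library. Without WT library 2 Irs2 gave 0.63, so its value drew on both KO library 2 and WT library 2. Irs2 also passed without WT library 1 (1.51, edgeR adjusted p = 0.00883).

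Among other oncofetal genes, 2 of 7 tested were higher and 1 was lower, with a median log2 fold change of 0.03. Over all tested genes 7.42% were higher and 4.96% were lower, and 7 genes are too few to set apart from these shares. The imprinted non-coding RNA H19 held 6.91 and 8.16 CPM in KO libraries 1 and 2, against 1.4 and 2.62 CPM in WT libraries 1 and 2 (1.92, SE 0.43, edgeR adjusted p = 0.0212). Gpc3, a cell surface glypican used as a marker of liver cancer, gave 0.87 (SE 0.19, edgeR adjusted p = 0.0191). Without KO library 2 both calls were lost (H19 1.8, edgeR adjusted p = 0.0842, and Gpc3 0.73, edgeR adjusted p = 0.179). Peg10, an imprinted gene of retrotransposon origin, gave -0.78 (SE 0.16, edgeR adjusted p = 0.0168), and its call was lost without KO library 1 (-0.77, edgeR adjusted p = 0.127) or KO library 2 (-0.78, edgeR adjusted p = 0.117). Plag1, Tpbg and Sall4 did not pass, with 0.72, -0.67 and 0.03. Igf2 held 0 counts in every library, and Afp held 1 count in all, in WT library 1.

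**Figure D4:**
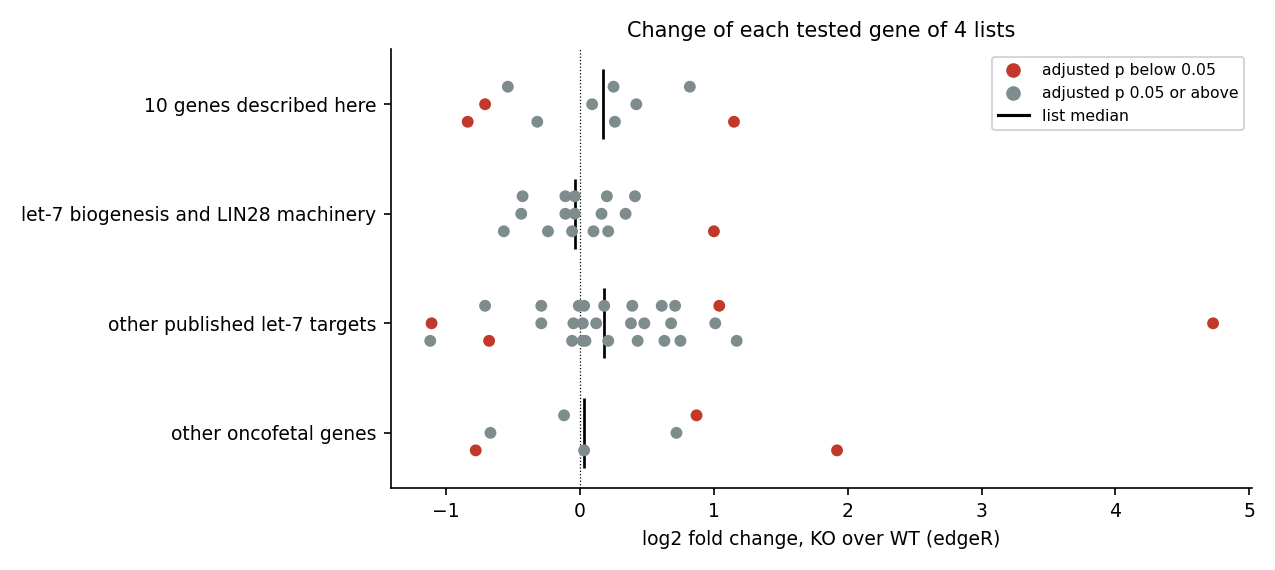
Log2 fold change of KO over WT for every tested gene of 4 lists, with genes at an adjusted p below 0.05 in red and a line at each list's median. The medians are 0.17 for the 10 genes, -0.04 for let-7 biogenesis and the LIN28 machinery, 0.18 for other published let-7 targets and 0.03 for other oncofetal genes, and the point at 4.73 is Ccnd2.

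Marker genes were used to check the labelled cell type. All 10 markers of embryonic stem cells held counts, with summed levels of 3845 and 3946 CPM in KO libraries 1 and 2, against 3822 and 4221 CPM in WT libraries 1 and 2. Of these 10, Fgf4 was higher (0.8, edgeR adjusted p = 0.0134), and Klf4 (-1.59, edgeR adjusted p = 0.00235) and Utf1 (-0.91, edgeR adjusted p = 0.00568) were lower. The 9 markers of primitive endoderm summed to 26.3 and 24.4 CPM in KO, against 168 and 183 CPM in WT. Of these 9, 6 were lower, where 4.96% of all tested genes were. The 5 fibroblast or feeder markers summed to 10.2 and 20.7 CPM in KO, against 28.9 and 51.9 CPM in WT. Most of each sum was Thy1 (9.82 and 20.3 CPM in KO, 26.8 and 50.2 CPM in WT). Col1a1 held at most 1.73 CPM in any library, and Col3a1 and Postn held 0 counts in every library. The 4 markers of primed epiblast summed to 115 and 106 CPM in KO, against 210 and 155 CPM in WT, with Fgf5 at or under 4 counts per library. The 5 trophectoderm markers summed to 393 and 241 CPM in KO, against 94.5 and 102 CPM in WT, most of it Tfap2c. The 5 neural markers summed to 27.4 and 33 CPM in KO, against 9.29 and 13.8 CPM in WT. Most of the difference was Pax6, with 16 and 16.4 CPM in KO, against 0.411 and 0.504 CPM in WT. Sox1 (0.15, edgeR adjusted p = 0.83) and Nes (0.69, edgeR adjusted p = 0.299) did not pass. Fabp7 and Zic1 held at most 3 counts in any library. The part of these shifts in the changes of Lin28a, Trim71 and Mycn was not tested, and in bulk RNA fewer cells of a type and less RNA per cell cannot be told apart.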

How the data were processed

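The data are 1 deposited table of raw, unnormalized counts by Ensembl gene for 4 libraries, prepared with the QuantSeq 3' FWD kit per the labels' protocols. The submitters' processing notes name Trim Galore and GRCm38. No aligner, counting program or strand setting is given in the sources used here. Symbols came from GENCODE vM21 (GRCm38), which named 55154 of 55421 identifiers.

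Groups came from the sample titles. The KO and WT groups were compared in edgeR 4.0.16 with R 4.3.3 (quasi-likelihood F test, two-sided, TMM, filterByExpr, Benjamini-Hochberg over 14427 genes, threshold 0.05). SE was taken as |log2 fold change| over the root of F. CPM is per library total. 3 counts correspond to 0.236 to 0.302 CPM per library, and intervals cover counting error only. No library repeats another (chi-square per degree of freedom at least 11.3). The test was checked on counts simulated at the common dispersion, in which the changed genes averaged 10 CPM or more. It called 5.97% of 1.5-fold, 37.3% of 2-fold and 100% of 4-fold changes. A gene that did not pass may therefore have changed by such smaller folds. The shares do not carry over to genes with fewer counts, such as Hmga1, or a wider spread, such as Igf2bp3. For those, larger changes may also have been missed. Sites were read from GENCODE transcripts (Python 3.11.15). All 10 members are named. From each other list, up to 6 called genes and 3 others were named by smallest p, with Tut4, Tut7, Dis3l2, Igf2 and Afp chosen after their values were seen. Members and lists were chosen with earlier results of these data known.

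The alternatives were DESeq2 1.42.0 (its test, or its size factors in edgeR), library totals, no filter, only genes averaging 10 CPM or more, a block for the replicate number, each library left out, the shortest 3' UTR, and 8-base sites only.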

Additional observations from a re-analysis of the deposited data

How the results depend on the processing

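Among the 10 genes, Mycn was called higher, and Lin28a and Trim71 lower, with DESeq2 size factors, the DESeq2 test, library totals, no filter, only genes averaging 10 CPM or more, and the replicate number as a block. In these fits Lin28a lay between -0.86 and -0.83, Trim71 between -0.73 and -0.71 and Mycn between 1.13 and 1.18. Without a filter 2 of the 10 were higher, Hmga2 being the second. With 1 library left out, 1 to 2 were higher and 0 to 3 were lower, and the lone library of an arm was assumed to vary like the other group. The log2 fold change then ranged from -0.05 to 0.22 for Igf2bp2, from -0.96 to 0.82 for Igf2bp3 and from -0.17 to 0.25 for Sall4, so that the sign of each turned. Over all genes, 1071 were higher and 715 lower. These counts were 636 and 391 at a mean CPM of at least 10, 638 and 370 with the replicate block, 1590 and 1193 without a filter, and between 556 and 1477 and between 285 and 1011 with 1 library left out. The cause was not tested. The shared replicate numbers do not mark a batch in the labels, and the deviations of same-numbered libraries had a correlation of -0.0703 across genes. With the replicate block Igf2bp3 gave -0.16, and Cdc34 (edgeR adjusted p = 0.0546), Gpc3 (0.0512) and Plagl2 (0.0673) lost their calls. All 3 calls among the 10 genes held. Without a filter Myc, Irs2, Cdk6 and Trim25 also passed, and among genes averaging 10 CPM or more Plagl2 did not (1.02, edgeR adjusted p = 0.0582). Words of the miR-290 family were in 4 of the 10 genes with the longest or shortest 3' UTR, and in 0 when only 8-base words counted. Let-7 words were in 10, in 8 with the shortest 3' UTR, and in 7 as 8-base words. Hmga1 and Mir98 held at most 30 counts in any library, which limits their precision.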
